A study of Sus scrofa with 2 samples.

Results

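The 10 genes described here encode molecular chaperones of heart muscle, chosen by name from the 31908 genes of the matrices, and all 10 were found in both libraries. 4 of them are small heat shock protein genes of striated muscle (CRYAB, HSPB6, HSPB7 and HSPB8), and 1 is the HSPB8 partner BAG3. The other 5 (DNAJB1, HSPH1, HSPA8, HSP90AA1 and HSPD1) are grouped here as heat-inducible chaperones or co-chaperones. Cells raise most of these on heat or other protein stress, while HSPA8 is the constitutive HSP70 and is counted with them throughout. Transcripts had been counted in nuclei of the free wall of the left ventricle in Bama miniature pigs, in 1 library per genotype. The wild-type library (WT) and the triple-transgenic library (TG) both came from frozen tissue of pigs fed for 12 months with extra fat and sucrose, so neither group is on a normal diet. TG carries PNPLA3I148M (a variant of a lipid droplet protein), GIPRdn (a GIP receptor made to block the signal of that gut hormone) and hIAPP (human islet amyloid peptide). The promoters of the transgenes, the number of animals behind a library and their age and sex were not given in the sources used here. Levels are given by cell class and by library, with the muscle small heat shock genes set against the heat-inducible chaperones.

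Small heat shock proteins bind unfolding proteins without using ATP and hold them in a soluble state until other chaperones refold them or they are degraded. In heart muscle CRYAB (alpha B-crystallin) protects desmin and titin, HSPB6 and HSPB7 associate with the contractile apparatus and actin, and HSPB8 joins BAG3 in a complex that passes damaged filament proteins to autophagy. Refolding is the work of HSP70 proteins such as HSPA8, started by J-domain proteins such as DNAJB1 and reset by nucleotide exchange factors such as HSPH1 and BAG3. HSP90AA1 completes the folding of kinases and receptors, and HSPD1 is the chaperonin of the mitochondrial matrix.

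Counts of unique molecular identifiers (UMIs, counted RNA molecules) came from 16725 WT and 14939 TG nuclei with medians of 5442 and 3937 UMIs, and 75 barcodes occurred in both libraries. Nuclei were clustered and named from marker genes, with "-like" added since only transcripts support the names, and 9 classes had enough nuclei in both libraries to be compared. A level is given as CPM, the UMIs of a gene per 1000000 nuclear-encoded UMIs of the class. A gene was called higher or lower in TG where the ratio of CPM, TG over WT, passed 1.5 in either direction with a 95% interval that left out 1, provided it had 20 UMIs or more in the libraries combined. No replicates and hence no test stand behind a comparison of 1 WT and 1 TG library, so all intervals hold counting error only and each difference is between these 2 libraries. Cardiomyocyte-like nuclei numbered 6938 in WT and 5316 in TG, but WT nuclei lay mostly in clusters 0 and 3, TG nuclei in clusters 1 and 12, and cluster 6 alone held many of both (664 and 1173). The most abundant gene, ENSSSCG00000048856, took 6.36% of cardiomyocyte-like UMIs in WT and 13.9% in TG. Clusters with markers of several classes, set aside, held 9.63% of WT and 14.9% of TG nuclei. Among the 10 genes HSPH1 alone was one of the 2000 variable genes that made the clusters.

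In the RefSeq annotation of Sscrofa11.1, the build named in the submitters' processing notes, CRYAB (ENSSSCG00000036724) spans chromosome 9 from 39638505 to 39643530 and overlaps the small heat shock gene HSPB2, which runs from 39640117 to 39644104. HSPB2 has no row under its own symbol in the matrices and the handling of strand was not given in the sources used here, so HSPB2 reads within the CRYAB count cannot be told apart. HSPB6 lies on chromosome 6 from 45181439 to 45184011 and HSPB7 on chromosome 6 from 75171507 to 75174918. HSPB8 spans chromosome 14 from 33626125 to 33639824 and BAG3 chromosome 14 from 129510240 to 129533998, on the same chromosome. DNAJB1 spans chromosome 2 from 64761672 to 64764482, HSPH1 chromosome 11 from 7733874 to 7759528 and HSPA8 chromosome 9 from 49982278 to 49986760. HSPD1 spans chromosome 15 from 101360355 to 101373498, next to HSPE1, its co-chaperonin, from 101374019 to 101376146. HSP90AA1 sits on a sequence that this table assigns to no chromosome. HSPA8, HSP90AA1 and HSPD1 have near-identical processed copies in mammalian genomes, so their counts are uncertain to the extent that reads were split among copies. The strongly heat-inducible HSPA1A and HSPA1B were not found under those symbols and were not analysed here.

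In the WT library most small heat shock genes and 3 of the chaperones lay at opposite ends of the order of the 9 classes. CRYAB, HSPB6 and HSPB7 were highest in cardiomyocyte-like nuclei, HSPB8 and BAG3 were second there behind smooth muscle-like nuclei, and DNAJB1, HSPH1 and HSPA8 were lowest there, HSPH1 and HSPA8 with intervals that overlapped the next class. HSP90AA1 and HSPD1 did not follow, with cardiomyocyte-like nuclei at ranks 6 and 8 of 9. The smooth muscle-like lead for HSPB8 and BAG3 lay in WT cluster m2, described below, at 338 and 356 CPM. WT cluster m1 of that class had 57.0 and 67.7 CPM, below cardiomyocyte-like nuclei at 184 and 121 CPM. In TG the order broke for CRYAB, HSPB6 and HSPB7, for which cardiomyocyte-like nuclei ranked 8th, 9th and 9th of 9, and held for HSPB8 and BAG3, which were highest in cardiomyocyte-like nuclei. In TG those nuclei were lowest for HSPH1, HSPA8, HSP90AA1 and HSPD1 and ranked 6th for DNAJB1. Of all UMIs counted for a gene, cardiomyocyte-like nuclei held 82.2% (WT) and 70.5% (TG) for HSPB8, 79.7% and 52.2% for CRYAB, and 30.5% and 31.4% for HSPH1. The same shares over all nuclear-encoded genes were 61.0% and 52.5%.

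**Figure D1:**
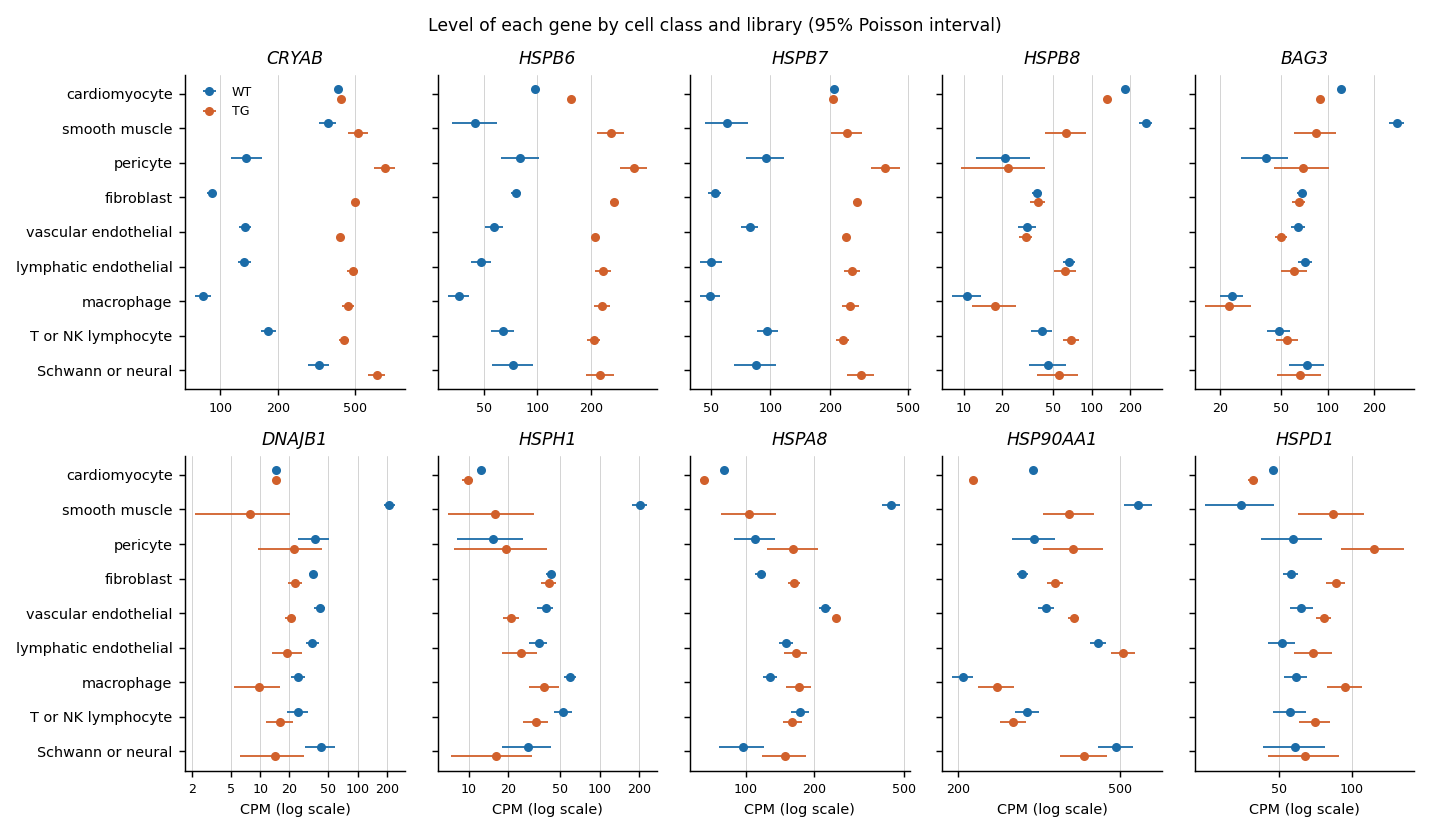
Level of each of the 10 genes in CPM (log axis) by cell class, WT in blue and TG in orange, with bars for the 95% Poisson interval. CRYAB, HSPB6 and HSPB7 sit to the right in TG in the classes under cardiomyocytes, and DNAJB1, HSPH1 and HSPA8 stand far to the right in WT smooth muscle-like nuclei (211, 203 and 438 CPM).

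Within cardiomyocyte-like nuclei, HSPB6 was the only gene of the 10 called higher in TG and none was called lower, where 24.9% and 8.87% of 18923 genes were called. With 0.5 added to each UMI count, as for all log2 ratios here, the median log2 ratio was 0.02 over the 4 small heat shock genes, -0.30 over the 5 chaperones and 0.08 over all genes. CRYAB measured 410.4 CPM in WT against 427 CPM in TG, a ratio of 1.04 (1.02 to 1.06). HSPB7 measured 210.3 and 207 CPM, a ratio of 0.983 (0.959 to 1.01). These levels of the small heat shock genes lay close together in the libraries. HSPB6, whose protein is a substrate of cyclic nucleotide-dependent kinases, measured 97.5 CPM in WT against 154 CPM in TG, a ratio of 1.58 (1.53 to 1.63).

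HSPB8 and BAG3, partners in chaperone-assisted autophagy, were both at lower levels in TG cardiomyocyte-like nuclei, short of the 1.5-fold limit. HSPB8 measured 184 CPM in WT against 132 CPM in TG, a ratio of 0.716 (0.694 to 0.737). BAG3 measured 121 and 89.2 CPM, a ratio of 0.737 (0.71 to 0.765). The interval of each ratio leaves out 1, and thinned to 1000 UMIs per nucleus HSPB8 passed the limit (log2 ratio -0.60).

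Among the heat-inducible chaperones in cardiomyocyte-like nuclei, HSP90AA1 stood furthest from equal levels and DNAJB1 nearest. HSP90AA1 measured 306 CPM in WT against 218 CPM in TG, a ratio of 0.711 (0.695 to 0.728). DNAJB1, which hands substrates to HSP70, measured 14.6 and 14.5 CPM, a ratio of 0.989 (0.898 to 1.09). HSPH1, an HSP110 exchange factor, measured 12.4 and 9.76 CPM, HSPA8, the constitutive HSP70, 79.99 and 64.9 CPM, and HSPD1 47.2 and 39.0 CPM. Their ratios were 0.787, 0.811 and 0.827, all below 1 with intervals that leave out 1 and none past the limit. Immediate early genes, which rise with tissue handling and stress, moved in the same direction and further. Of 8 measured 5 were called lower (ATF3 37.8 and 3.35 CPM, NR4A3 490.1 and 80.03 CPM), and their part in the chaperone ratios was not tested. The chaperone ratios depended on the denominator. With the most abundant gene left out of the total, the log2 ratio was -0.22 for HSPH1 and -0.15 for HSPD1. Per 100 UMIs of the 7 sarcomere transcripts described below, HSPH1 had 0.153 in WT and 0.150 in TG. In the same order HSPA8 had 0.986 and 0.997, HSPD1 0.582 and 0.600, HSP90AA1 3.77 and 3.34, and DNAJB1 0.181 and 0.223.

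The cardiomyocyte-like clusters differed among themselves more than the libraries did for CRYAB and HSPB7. Cluster 6 held the highest CRYAB of these clusters, at 578 CPM in WT against 585 CPM in TG. The WT clusters 0 and 3 had 437 and 373 CPM of CRYAB, and the TG clusters 1 and 12 had 428 and 356 CPM. HSPB7 followed the same order, with 327 and 306 CPM in cluster 6, 229 and 182 CPM in clusters 0 and 3, and 203 and 170.0 CPM in clusters 1 and 12. Nuclei of cluster 6 had a median of 2172 UMIs in WT and 4308 in TG, and the ventricular light chain MYL2, also abundant outside the class, measured 3531 and 2249 CPM there against 2160.1 CPM in cluster 0 and 1462 CPM in cluster 1.

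Compared within cluster 6 alone, a restriction chosen after the data had been seen, the HSPB6 call was lost and 3 chaperones were called lower. Of all genes measured in that cluster 8.81% were called higher and 15.4% lower. HSPB6 measured 171 CPM in WT against 219 CPM in TG, a ratio of 1.28 (1.14 to 1.43). HSPH1 measured 16.5 CPM in WT against 8.28 CPM in TG, a ratio of 0.503 (0.324 to 0.782). DNAJB1 and HSPA8 had ratios of 0.62 (0.418 to 0.928) and 0.628 (0.545 to 0.724) in that cluster. CRYAB and HSPB7 stayed near equal levels there, with ratios of 1.01 (0.952 to 1.08) and 0.936 (0.861 to 1.02). HSPB8 and BAG3 had 0.8 (0.715 to 0.896) and 0.815 (0.711 to 0.935), and HSP90AA1 and HSPD1 0.736 (0.676 to 0.801) and 0.734 (0.606 to 0.891). In this cluster 8 of the 10 intervals leave out 1, and HSPB6 alone of those 8 was higher in TG.

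Outside cardiomyocyte-like nuclei CRYAB, HSPB6 and HSPB7 stood higher in TG nearly everywhere, DNAJB1 stood lower, and the other genes varied with the class. In fibroblast-like nuclei 4 were called higher and 1 lower, where 16.6% and 8.92% of all measured genes were called. The counts in vascular endothelial-like nuclei were 3 and 2 (all genes 11.6% and 7.97%), and in lymphatic endothelial-like nuclei 3 and 1 (12.3% and 7.98%). Macrophage-like nuclei had 5 higher and 2 lower (16.7% and 6.65%), while T or NK lymphocyte-like nuclei had 4 and 2 (17.6% and 13.6%). Pericyte-like nuclei had 4 and 0 (10.1% and 8.5%), smooth muscle-like nuclei 3 and 5 (16.7% and 9.76%), while Schwann or neural-like nuclei had 4 and 1 (11.1% and 9.31%). CRYAB, HSPB6 and HSPB7 gave 23 of the 24 possible higher calls over these 8 classes. The 5 heat-inducible chaperones gave 5 higher and 12 lower calls of 40, and HSPB8 with BAG3 gave 2 higher and 2 lower calls of 16.

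**Figure D2:**
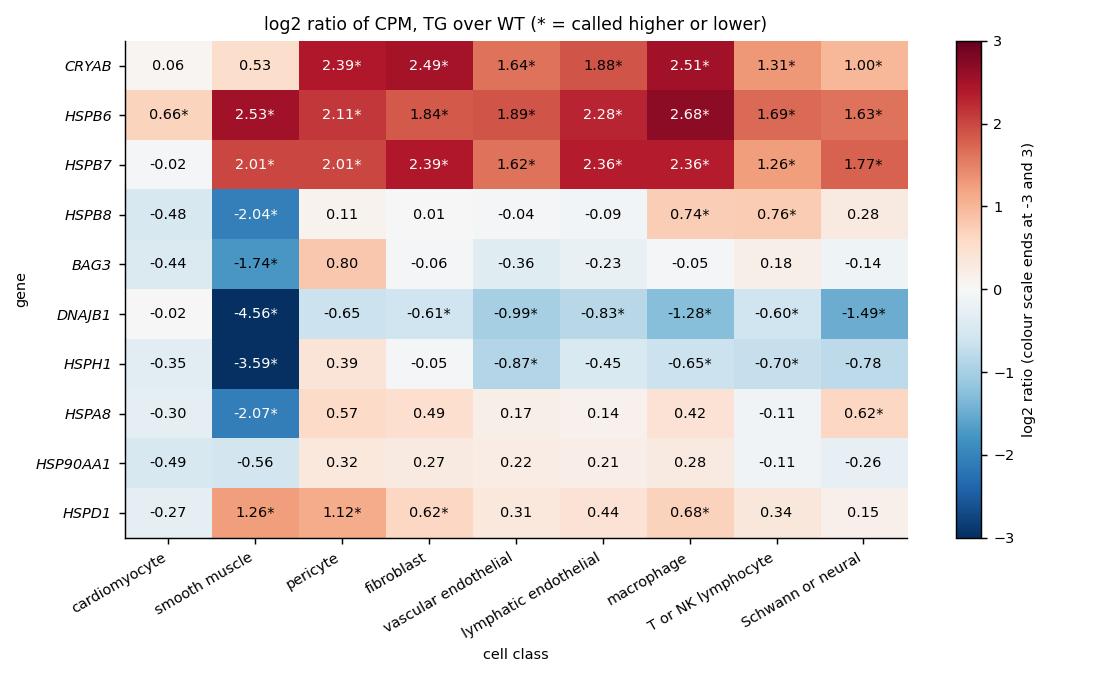
The log2 ratio of CPM, TG over WT, with 0.5 added to each UMI count, for each gene (rows) and cell class (columns), red for higher and blue for lower in TG, with an asterisk where the ratio was called. The upper 3 genes are red in all classes outside cardiomyocytes, up to 2.68 for HSPB6 in macrophage-like nuclei, and the smooth muscle column holds the lowest values, down to -4.56 for DNAJB1.

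CRYAB in WT measured 410.4 CPM in cardiomyocyte, 362 in smooth muscle, 326 in Schwann or neural, 178 in T or NK lymphocyte, 137 in pericyte, 135 in vascular endothelial, 133 in lymphatic endothelial, 89.8 in fibroblast and 81.1 in macrophage-like nuclei. The intervals of neighbours in this order overlapped except between cardiomyocyte and smooth muscle, between Schwann or neural and T or NK, and between lymphatic endothelial and fibroblast. In TG, CRYAB measured 718 CPM in pericyte, 651 in Schwann or neural, 523 in smooth muscle, 503 in fibroblast, 489 in lymphatic endothelial, 463 in macrophage, 440.0 in T or NK lymphocyte, 427 in cardiomyocyte and 419 in vascular endothelial-like nuclei. There the highest class was 1.71 times the lowest, against 5.06 times in WT, and the intervals of all neighbours overlapped. Over the 8 classes outside cardiomyocytes the CRYAB ratio ran from 1.44 (1.23 to 1.69) in smooth muscle-like nuclei, the only one of the 8 without a call, to 5.71 (5.07 to 6.43) in macrophage-like nuclei. The macrophage-like log2 ratio of 2.51 was 1.48 with mixed clusters counted in and 3.32 with the library-wide profile subtracted. Over these classes and all alternatives the log2 ratio stayed above 0. It ran from 0.29 to 3.71 for CRYAB, 1.30 to 3.38 for HSPB6 and 1.03 to 4.27 for HSPB7. Each upper end came from the subtraction, which was scaled to the cardiomyocyte markers. In TG macrophage-like nuclei their median was 27.3% of the cardiomyocyte-like level, against 135% for the sarcomere transcripts described below. The subtraction was thus too small to remove RNA of the sarcomere kind, and ratios above 0 under it are no check on muscle RNA.

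HSPB6 in WT measured 97.5 CPM in cardiomyocyte, 80.5 in pericyte, 75.6 in fibroblast, 73.0 in Schwann or neural, 64.2 in T or NK lymphocyte, 57.1 in vascular endothelial, 48.3 in lymphatic endothelial, 44.9 in smooth muscle and 36.1 in macrophage-like nuclei, and the intervals of every pair of neighbours overlapped. Its TG levels were 349 CPM in pericyte, 269.9 in fibroblast, 260.3 in smooth muscle, 235 in lymphatic endothelial, 232 in macrophage, 227 in Schwann or neural, 213 in vascular endothelial, 208 in T or NK lymphocyte and 154 in cardiomyocyte-like nuclei, so that every class outside cardiomyocytes lay above cardiomyocyte-like nuclei, whose interval (151 to 158) was clear of the next class, as pericyte-like were of fibroblast-like nuclei. Outside cardiomyocytes HSPB6 ratios ran from 3.1 (2.26 to 4.30) in Schwann or neural-like to 6.43 (5.40 to 7.68) in macrophage-like nuclei. HSPB7, whose transcripts are largely restricted to heart and skeletal muscle, measured 210.3 CPM in cardiomyocyte, 96.5 in T or NK lymphocyte, 94.5 in pericyte, 84.2 in Schwann or neural, 78.5 in vascular endothelial, 60.4 in smooth muscle, 52.1 in fibroblast, 50.2 in lymphatic endothelial and 49.6 in macrophage-like nuclei in WT. The TG library had 382 CPM in pericyte, 287 in Schwann or neural, 274 in fibroblast, 258 in lymphatic endothelial, 254 in macrophage, 244 in smooth muscle, 242 in vascular endothelial, 232 in T or NK lymphocyte and 207 in cardiomyocyte-like nuclei, with cardiomyocyte-like nuclei again last. Outside cardiomyocytes HSPB7 ratios ran from 2.40 (2.08 to 2.78) in T or NK lymphocyte-like to 5.26 (4.80 to 5.77) in fibroblast-like nuclei. In WT its cardiomyocyte-like level stood clear of every other class, and the intervals of the other neighbours overlapped.

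Most sarcomere transcripts moved with these 3 genes. The 7 references (MYL2, MYL3, TNNC1, TNNI3, ACTC1, MYH7 and TNNT2, all made by heart muscle) had a median level outside cardiomyocytes of 31.9% to 56.1% of their cardiomyocyte-like level in WT and 117% to 169% in TG. Of the 7, 4 to 6 were called higher in each of the 8 classes. ACTC1 alone was called lower, in vascular endothelial-like, T or NK lymphocyte-like and Schwann or neural-like nuclei. Of the 13 cardiomyocyte markers in the matrices, 5 (vascular endothelial-like) to 13 (macrophage-like) were called higher in TG, none was called lower in these 8 classes and none was at 0. Their summed level outside cardiomyocytes was 3228 to 14865 CPM in WT and 9639 to 22912 CPM in TG, against 52475 and 44037 CPM in cardiomyocyte-like nuclei. Macrophage-like nuclei, cells that make no sarcomeres, held 741 CPM of MYL2 in WT and 2325 CPM in TG. The part of muscle RNA outside its nuclei in the CRYAB, HSPB6 and HSPB7 ratios was not tested, and these ratios are not read as expression by the classes.

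Counted against the references, the differences over the 8 outer classes narrowed for these 3 genes in TG and stayed wide for HSPB8. For CRYAB in WT they did not narrow, at 5.00 times between the highest and lowest class against 4.47 times by CPM. Per 100 reference UMIs, TG held 5.10 to 7.20 CRYAB UMIs over the 8 classes and 6.56 in cardiomyocyte-like nuclei. HSPB7 had 2.81 to 3.18 and 3.18, and HSPB6 2.51 to 3.02 and 2.37. The highest of the 8 TG classes was 1.41 times the lowest for CRYAB, 1.21 times for HSPB6 and 1.13 times for HSPB7, against 5.51 times for HSPB8. The narrowing was not particular to these 3 genes. For HSPD1 the highest of the 8 TG classes was 1.45 times the lowest, against 1.93 times by CPM. HSPB8 had 0.162 to 0.893 against 2.03 in cardiomyocyte-like nuclei, and BAG3 0.251 to 0.97 against 1.37. In WT the CRYAB proportion was 5.06 in cardiomyocyte-like nuclei and ran from 2.93 in macrophage-like to 14.6 in smooth muscle-like nuclei.

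**Figure D3:**
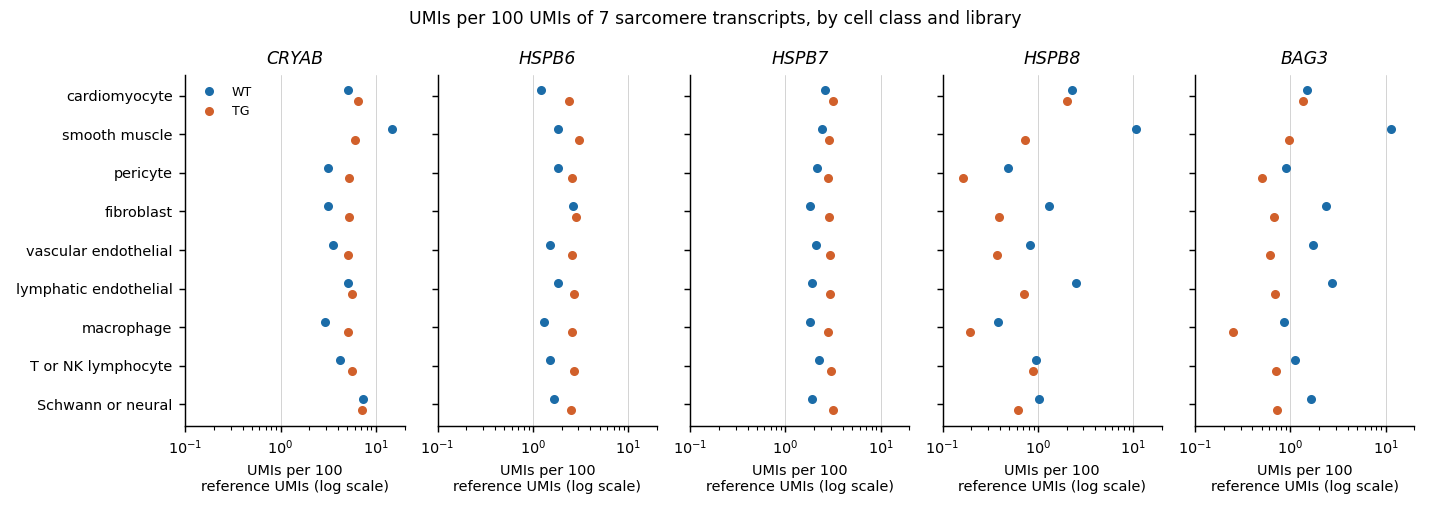
UMIs of CRYAB, HSPB6, HSPB7, HSPB8 and BAG3 per 100 UMIs of the 7 sarcomere references (log axis) by cell class, WT in blue and TG in orange. The TG points of CRYAB, HSPB6 and HSPB7 stand nearly in a vertical line, while HSPB8 reaches 2.03 in cardiomyocyte-like nuclei and 0.162 in pericyte-like nuclei.

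The share of nuclei with a UMI separated cardiomyocyte-like from macrophage-like nuclei for HSPB8 in both libraries and for CRYAB in WT alone. With every nucleus thinned to 1000 UMIs, 34.5% of WT and 36.5% of TG cardiomyocyte-like nuclei held CRYAB (unthinned 90.8% and 92.0%). Macrophage-like nuclei held it in 9.18% of WT and 36.9% of TG nuclei (unthinned 23.7% and 68.7%). In TG the CRYAB share of cardiomyocyte-like nuclei was no higher than that of macrophage-like nuclei. HSPB8 was found in 17.6% and 12.0% of thinned cardiomyocyte-like nuclei and in 1.00% and 1.36% of macrophage-like nuclei. The macrophage-like share of HSPB8 thus stayed far below in both libraries. Median depths were 9996 and 7648 UMIs in cardiomyocyte-like and 4112 and 2726 UMIs in macrophage-like nuclei, and thinning left out 122 WT cardiomyocyte-like and 5 WT macrophage-like nuclei and none in TG.

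HSPB8 in WT measured 265 CPM in smooth muscle, 184 in cardiomyocyte, 66.4 in lymphatic endothelial, 45.8 in Schwann or neural, 40.8 in T or NK lymphocyte, 37.6 in fibroblast, 31.2 in vascular endothelial, 21.0 in pericyte and 10.6 in macrophage-like nuclei, with smooth muscle-like and then cardiomyocyte-like nuclei clear of the rest. In TG it measured 132 CPM in cardiomyocyte, 69.1 in T or NK lymphocyte, 63.6 in smooth muscle, 62.4 in lymphatic endothelial, 55.3 in Schwann or neural, 37.8 in fibroblast, 30.4 in vascular endothelial, 22 in pericyte and 17.6 in macrophage-like nuclei, with cardiomyocyte-like nuclei clear of the other classes. Of TG clusters with at least 40 nuclei, fibroblast-like cluster 18 was highest, at 160 CPM (107 to 230) on 29 UMIs. Cardiomyocyte-like cluster 6 followed at 153 CPM. The HSPB8 ratio was 1.00 (0.852 to 1.18) in fibroblast-like, 0.972 (0.801 to 1.18) in vascular endothelial-like and 0.939 (0.747 to 1.17) in lymphatic endothelial-like nuclei, with an interval that held 1 in all 3. These near-equal levels moved with the processing, to a log2 ratio of -1.41 in vascular endothelial-like nuclei when the libraries were clustered apart and -0.64 in lymphatic endothelial-like nuclei at no more than 1% mitochondrial UMIs. Within vascular cluster 4 the ratio was 1.91 (1.16 to 3.31). It was called higher in T or NK lymphocyte-like nuclei, at 1.69 (1.33 to 2.16), and in macrophage-like nuclei, at 1.65 (1.01 to 2.65) on 60 and 27 UMIs. In the lymphocyte-like class 8 of its own 12 measured markers were called lower in TG (summed 7089.9 and 3112 CPM), while 11 of 12 vascular endothelial and 7 of 12 fibroblast markers were called higher, and their part in the HSPB8 ratio was not tested. Per 100 reference UMIs HSPB8 stood at 0.955 in WT and 0.893 in TG lymphocyte-like nuclei, and at 0.383 and 0.194 in macrophage-like nuclei. When the libraries were clustered separately, the macrophage-like log2 ratio of HSPB8 turned to -1.18.

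BAG3 in WT measured 282 CPM in smooth muscle, 121 in cardiomyocyte, 73.0 in Schwann or neural, 71.3 in lymphatic endothelial, 67.8 in fibroblast, 64.0 in vascular endothelial, 48.3 in T or NK lymphocyte, 39.7 in pericyte and 23.9 in macrophage-like nuclei. Its TG levels were 89.2 CPM in cardiomyocyte, 83.5 in smooth muscle, 68.7 in pericyte, 66.0 in Schwann or neural, 64.8 in fibroblast, 60.7 in lymphatic endothelial, 54.5 in T or NK lymphocyte, 49.9 in vascular endothelial and 22.8 in macrophage-like nuclei, where the interval of cardiomyocyte-like nuclei overlapped that of smooth muscle-like nuclei and only the step from vascular endothelial-like to macrophage-like nuclei was wider than the intervals. BAG3 was called in no class outside smooth muscle. Its ratios in the other 7 ran from 0.78 (0.678 to 0.898) in vascular endothelial-like to 1.73 (0.991 to 2.99) in pericyte-like nuclei, the latter on 34 and 25 UMIs.

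DNAJB1 stood lower in TG in each of the 8 classes and was called in 7 of them. In WT it measured 211 CPM in smooth muscle, 42.1 in Schwann or neural, 40.7 in vascular endothelial, 36.2 in pericyte, 35 in fibroblast, 34.4 in lymphatic endothelial, 24.5 in T or NK lymphocyte, 24.4 in macrophage and 14.6 in cardiomyocyte-like nuclei. The TG library had 22.9 CPM in fibroblast, 22 in pericyte, 20.5 in vascular endothelial, 19.1 in lymphatic endothelial, 16.1 in T or NK lymphocyte, 14.5 in cardiomyocyte, 14.3 in Schwann or neural, 9.76 in macrophage and 7.95 in smooth muscle-like nuclei, and the intervals of all neighbours overlapped. Leaving smooth muscle aside, the called ratios ran from 0.339 (0.136 to 0.747) in Schwann or neural-like to 0.656 (0.438 to 0.974) in T or NK lymphocyte-like nuclei, and pericyte-like nuclei had 0.608 (0.242 to 1.35) on 31 and 8 UMIs. The Schwann or neural-like ratio rested on 34 and 8 UMIs. The lymphocyte-like log2 ratio was -0.40 at no more than 1% mitochondrial UMIs, short of the limit. The fibroblast-like ratio of 0.654 (0.535 to 0.796) lay near the limit and was not called under 4 of the alternatives run. Fibroblast-like nuclei of WT lay mostly in cluster 2 (2443, and 410 in cluster 18) and those of TG in cluster 5 (1934), so this and the other fibroblast-like ratios here compare largely different clusters. Immediate early genes were called lower to a varying extent, with 7 of 7 in fibroblast-like and 6 of 7 in vascular endothelial-like nuclei. Lymphatic endothelial-like nuclei had 5 of 7 called, and macrophage-like nuclei 1 of 6. The part of immediate early genes in the DNAJB1 ratios was not tested.

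HSPH1 was called lower in vascular endothelial-like, macrophage-like, T or NK lymphocyte-like and smooth muscle-like nuclei and in none higher. In WT it measured 203 CPM in smooth muscle, 59.5 in macrophage, 52.9 in T or NK lymphocyte, 42.1 in fibroblast, 38.6 in vascular endothelial, 34.2 in lymphatic endothelial, 28.5 in Schwann or neural, 15.2 in pericyte and 12.4 in cardiomyocyte-like nuclei. In TG it measured 40.7 CPM in fibroblast, 37.7 in macrophage, 32.5 in T or NK lymphocyte, 24.8 in lymphatic endothelial, 21.0 in vascular endothelial, 19.2 in pericyte, 16.1 in Schwann or neural, 15.9 in smooth muscle and 9.76 in cardiomyocyte-like nuclei, with the intervals of all neighbours overlapping. The vascular endothelial-like ratio was 0.546 (0.448 to 0.665), the macrophage-like 0.634 (0.472 to 0.84) and the lymphocyte-like 0.615 (0.466 to 0.806). The fibroblast-like interval held 1, at 0.966 (0.825 to 1.13). The sole member among the clustering genes, HSPH1 takes part in how nuclei were grouped, and without the chaperone genes in that step 84 of 88 ratios of the 10 genes moved by less than their own interval.

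HSPA8 and HSP90AA1 gave 1 call between them outside smooth muscle. HSPA8 measured 438 CPM in smooth muscle, 224 in vascular endothelial, 174 in T or NK lymphocyte, 151 in lymphatic endothelial, 128 in macrophage, 116 in fibroblast, 109.7 in pericyte, 96.5 in Schwann or neural and 79.99 in cardiomyocyte-like nuclei in WT. Its TG levels were 252 CPM in vascular endothelial, 171 in macrophage, 166 in lymphatic endothelial, 163 in fibroblast, 162 in pericyte, 161 in T or NK lymphocyte, 148 in Schwann or neural, 103 in smooth muscle and 64.9 in cardiomyocyte-like nuclei, with vascular endothelial-like nuclei first and cardiomyocyte-like nuclei last, each clear of its neighbour. Its ratios in the 7 classes other than smooth muscle ran from 0.924 (0.81 to 1.05) in T or NK lymphocyte-like to 1.53 (1.11 to 2.12) in Schwann or neural-like nuclei, the only higher call. In that class 4 of 7 of its own markers were called lower in TG, whose part was not tested. HSP90AA1 measured 555 CPM in smooth muscle, 489 in Schwann or neural, 443 in lymphatic endothelial, 329.6 in vascular endothelial, 308 in pericyte, 306 in cardiomyocyte, 296 in T or NK lymphocyte, 288 in fibroblast and 206 in macrophage-like nuclei in WT and 510.1 CPM in lymphatic endothelial, 409 in Schwann or neural, 385 in vascular endothelial, 385 in pericyte, 376 in smooth muscle, 347 in fibroblast, 273 in T or NK lymphocyte, 249 in macrophage and 218 in cardiomyocyte-like nuclei in TG. It was called in none of the 9 classes, with ratios from 0.677 (0.572 to 0.799) in smooth muscle-like to 1.25 (1.01 to 1.54) in pericyte-like nuclei.

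HSPD1, the mitochondrial member, went the other way and was called higher in fibroblast-like, macrophage-like, pericyte-like and smooth muscle-like nuclei. In WT it measured 61.9 CPM in vascular endothelial, 58.6 in macrophage, 58.2 in Schwann or neural, 57.2 in pericyte, 55.9 in fibroblast, 55.4 in T or NK lymphocyte, 51.3 in lymphatic endothelial, 47.2 in cardiomyocyte and 34.8 in smooth muscle-like nuclei, with the intervals of all neighbours overlapping. The TG library had 124 CPM in pericyte, 93.7 in macrophage, 85.8 in fibroblast, 83.5 in smooth muscle, 76.7 in vascular endothelial, 70.2 in T or NK lymphocyte, 69.3 in lymphatic endothelial, 64.2 in Schwann or neural and 39.0 in cardiomyocyte-like nuclei. Cardiomyocyte-like nuclei were clear of the next class in TG. The called ratios were 1.53 (1.37 to 1.72), 1.60 (1.31 to 1.95), 2.16 (1.41 to 3.31) and 2.40 (1.51 to 3.82) in the order named. Under the alternatives the first 3 fell short of the limit. Their lowest log2 ratios were 0.345 in fibroblast-like nuclei at resolution 0.5, and 0.357 in macrophage-like and 0.249 in pericyte-like nuclei with mixed clusters counted in. Within smooth muscle cluster m1 alone HSPD1 was not called. HSPE1, which caps the HSPD1 ring and lies beside it, was called higher in fibroblast-like (ratio 1.82, 1.55 to 2.14), lymphatic endothelial-like (ratio 1.53, 1.14 to 2.04), macrophage-like (ratio 2.02, 1.48 to 2.73) and smooth muscle-like nuclei (ratio 2.65, 1.36 to 5.25). In cardiomyocyte-like nuclei HSPE1 measured 25.2 CPM in WT against 22.5 CPM in TG.

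Smooth muscle-like nuclei held the widest differences between the libraries for the heat-inducible genes. DNAJB1 measured 211 CPM in WT (230 UMIs) and 7.95 CPM in TG (4 UMIs), a ratio of 0.0378 (0.0102 to 0.098). HSPH1 measured 203 CPM (222 UMIs) and 15.9 CPM (8 UMIs), a ratio of 0.0782 (0.0334 to 0.157). The ratios of HSPA8, BAG3 and HSPB8 were 0.236 (0.174 to 0.315), 0.296 (0.209 to 0.41) and 0.24 (0.161 to 0.346). HSPB6, HSPB7 and HSPD1 were called higher in the same nuclei. The class joins clusters that the libraries fill unequally, m1 with 65 WT and 158 TG nuclei and m2 with 183 WT and 2 TG nuclei, so most WT nuclei of the class lay in m2 and most TG nuclei in m1.

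The WT nuclei of cluster m2 carried the high levels, which describes the clusters and tests nothing, since they were made from the same counts. DNAJB1 measured 269 CPM in cluster m2 and 42.7 CPM in cluster m1 of WT, HSPH1 266 CPM in cluster m2 and 21.4 CPM in cluster m1, and HSPA8 557 CPM in cluster m2 and 92.6 CPM in cluster m1. The levels in m2 over those in m1 were 6.28 (3.52 to 12.3), 12.5 (5.63 to 34.3) and 6.01 (4.05 to 9.31). HSPB8 and BAG3 were high beside them, with 338 CPM in cluster m2 and 57.0 CPM in cluster m1 and with 356 CPM in cluster m2 and 67.7 CPM in cluster m1, ratios of 5.92 (3.58 to 10.5) and 5.26 (3.31 to 8.87). CRYAB measured 442 CPM in cluster m2 and 132 CPM in cluster m1, a ratio of 3.36 (2.39 to 4.84). The muscle small heat shock genes were thus split, for HSPB6 and HSPB7 measured 50.5 CPM in cluster m2 and 28.5 CPM in cluster m1, and 62.8 CPM in cluster m2 and 53.4 CPM in cluster m1, ratios of 1.77 (0.82 to 4.38) and 1.18 (0.651 to 2.25). HSPD1 measured 29.6 CPM in cluster m2 and 49.9 CPM in cluster m1, a ratio of 0.593 (0.295 to 1.24), and HSP90AA1 had a ratio of 1.77 (1.43 to 2.22).

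**Figure D4:**
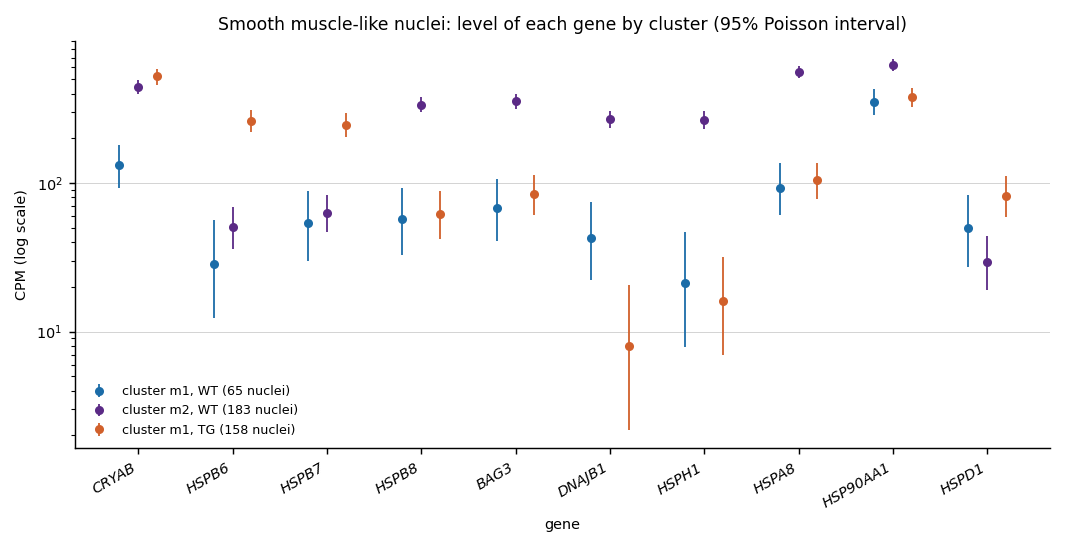
Level of each gene in CPM (log axis) in smooth muscle-like nuclei of cluster m1 in WT (blue), cluster m2 in WT (purple) and cluster m1 in TG (orange), with bars for the 95% Poisson interval. For HSPB8, BAG3, DNAJB1, HSPH1 and HSPA8 the purple points stand above both others, and for HSPB6 and HSPB7 the orange points stand above both others.

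Other stress-related transcripts were also high in cluster m2. The co-chaperone DNAJB4 measured 2686 CPM in cluster m2 and 677 CPM in cluster m1, and the small heat shock gene HSPB1 322 CPM in cluster m2 and 78.4 CPM in cluster m1. Of the immediate early genes, ATF3 measured 1778 CPM in cluster m2 and 470.2 CPM in cluster m1, NR4A3 1133 CPM in cluster m2 and 28.5 CPM in cluster m1 and FOS 382 CPM in cluster m2 and 35.6 CPM in cluster m1. The smooth muscle genes MYH11 and ACTA2 had ratios of 1.30 (1.22 to 1.40) and 0.935 (0.863 to 1.01), and MYL2 had 1.23 (1.03 to 1.48). HSP90AB1, HSPA5, HSPA9 and HSPE1, chaperones of the cytosol, endoplasmic reticulum and mitochondria, had ratios of 0.487, 0.899, 0.988 and 0.543. In the whole class, 7 of 7 measured immediate early genes were called lower in TG, with summed levels of 3607 and 481 CPM, and IER2 and JUNB were at 0 in both libraries. Their part in the chaperone ratios of this class was not tested.

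Within cluster m1, a comparison chosen after the data had been seen, none of the 10 genes was called lower, and of all genes measured there 10.4% were called higher and 10.2% lower. HSPA8, BAG3 and HSPB8 had ratios of 1.13 (0.691 to 1.88), 1.25 (0.709 to 2.27) and 1.09 (0.58 to 2.14). HSPD1, called higher in the whole class, had 1.65 (0.882 to 3.28) and no call. HSPH1 had 0.752 (0.229 to 2.63) on 6 and 8 UMIs. DNAJB1 had 0.188 (0.0442 to 0.62) on 12 and 4 UMIs, and both genes had too few UMIs for a call. HSPB6, HSPB7 and CRYAB were called higher in TG within m1, with ratios of 9.23 (4.55 to 21.8), 4.62 (2.70 to 8.51) and 3.96 (2.80 to 5.75).

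Nuclei that held UMIs of at least 3 of the 5 heat-inducible genes, after thinning to 1000 UMIs, were most frequent in WT cluster m2. There they made up 15 of 181 nuclei, 8.29% (exact interval 4.71% to 13.3%). In cluster m1 of WT there were 0 of 61, which allows a share of up to 4.92% at a limit of 3 counts, or 5.87% by the exact interval. WT fibroblast-like cluster 18 had 16 of 408 nuclei, 3.92% (exact interval 2.26% to 6.29%), where the larger cluster 2 had 0.414%. Cardiomyocyte-like nuclei had 0.22% in WT and 0.263% in TG. Cluster 18 of WT also had higher levels of DNAJB1, HSPH1 and HSPA8 than cluster 2, and the vascular cluster 27 had higher DNAJB1 and HSPH1, but not HSPA8, than cluster 4. DNAJB1, HSPH1 and HSPA8 measured 67.2, 116 and 264 CPM in cluster 18 against 29.6, 29.8 and 89.8 CPM in cluster 2. Cluster 27, with 98 WT nuclei and 1 TG nucleus, had 70.7 CPM of DNAJB1 and 91.4 CPM of HSPH1 against 36.9 and 35.7 CPM in cluster 4, and 162 CPM of HSPA8 against 215 CPM. FOS stood at 368 CPM in cluster 18 and 147 CPM in cluster 27, against 22.5 and 6.88 CPM.

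In the wider chaperone network of cardiomyocyte-like nuclei lower calls outnumbered higher calls. Of 87 further chaperone and proteostasis genes in the matrices 85 were measured, and 4 were called higher and 8 lower in TG, where 24.9% and 8.87% of all genes were called, with a median log2 ratio of -0.16. FKBP5, an HSP90 co-chaperone that glucocorticoids induce, measured 176 CPM in WT against 398 CPM in TG, a ratio of 2.26 (2.21 to 2.31). FKBP4, a related co-chaperone of steroid receptors, measured 12.1 and 7.76 CPM, a ratio of 0.641 (0.565 to 0.724). The other 11 measured HSP90 family genes and cofactors were not called.

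Among other small heat shock genes, HSPB3, a muscle gene, measured 72.9 CPM in WT against 109.6 CPM in TG, a ratio of 1.5 (1.45 to 1.56). HSPB1 measured 184 and 134 CPM, a ratio of 0.73 (0.708 to 0.752). HSPB3 thus stood on the side of HSPB6, and HSPB1 on the side of HSPB8. Of 16 J-domain genes 3 were called lower, among them DNAJB5 at 31.7 and 16.1 CPM (ratio 0.509, 0.468 to 0.552) and DNAJA4 at 25.7 and 16.3 CPM (ratio 0.635, 0.583 to 0.691). DNAJB4 was level at 652 and 654 CPM. Of 8 chaperonin genes CCT3, a subunit of the cytosolic ring, was called lower at 34.8 and 22.7 CPM. In the HSP70 and HSP110 list 1 of 9 was called higher, HSPA12B, at under 10 CPM in both libraries.

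The partners and clients of HSPB8 and BAG3 gave 1 higher and 1 lower call of 9. WIPI1, which acts in the growing autophagosome, measured 147 CPM in WT against 222 CPM in TG, a ratio of 1.51 (1.47 to 1.56), and TSC1, a brake on mTOR, 29.3 and 19.3 CPM, a ratio of 0.658 (0.608 to 0.711). The client filamin C (FLNC) had a ratio of 0.765 (0.741 to 0.79), the adaptor SYNPO2 1.15 (1.14 to 1.16) and the ubiquitin ligase STUB1 0.67 (0.584 to 0.767). Neither the 8 other nucleotide exchange and BAG genes nor the 7 heat shock factors and their regulators gave a call. HSF1, the main activator of heat-inducible genes, measured 32.9 and 24.8 CPM, and HSF2 47.0 and 47.6 CPM. Among 12 chaperones and stress factors of the endoplasmic reticulum 2 were called lower, PDIA4 at 10.3 and 6.64 CPM and DDIT3 at under 10 CPM in both libraries.

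Outside cardiomyocytes, higher calls outnumbered lower calls among these genes in every class, as they did among all genes. The counts were 15 higher and 0 lower of 83 measured in fibroblast-like nuclei (all genes 16.6% and 8.92%) and 21 higher and 3 lower of 81 in macrophage-like nuclei (16.7% and 6.65%). They were 13 higher and 3 lower of 82 in lymphatic endothelial-like nuclei (12.3% and 7.98%) and 9 higher and 6 lower of 71 in smooth muscle-like nuclei (16.7% and 9.76%). Vascular endothelial-like nuclei had 7 higher and 3 lower of 82 measured (11.6% and 7.97%). Desmin (DES), the filament that CRYAB protects, was called higher in 7 of the 8 classes, with 102 CPM in WT against 456 CPM in TG macrophage-like nuclei. The mitochondrial HSP70 gene HSPA9 was called higher in fibroblast-like (ratio 1.77, 1.55 to 2.01), lymphatic endothelial-like, macrophage-like, pericyte-like and smooth muscle-like nuclei (ratio 3.62, 2.20 to 6.06), 4 of which also gave a higher call for HSPD1.

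Likeness of pattern was measured as Pearson's r of log2(CPM + 1) over 18 points, the 9 classes in both libraries, among 6860 genes with a symbol and at least 50 CPM at 1 point. The 5 genes most like CRYAB were DES (0.96), NDUFB5 (0.89), HRC (0.89), HSPB7 (0.88), TNNT1 (0.88). DES and TNNT1 encode a muscle filament and a troponin subunit, and HRC a calcium-binding protein of the sarcoplasmic reticulum. HSPB6 had r = 0.82 with CRYAB, HSPB8 0.34 and BAG3 0.28. The 5 genes most like HSPH1 were SEC23B (0.86), TMEM165 (0.85), B3GNT2 (0.81), PCF11 (0.81), TAF5L (0.81). HSPA8 and DNAJB1 had r = 0.73 and 0.71 with HSPH1, and HSPB7 -0.57. The points share libraries, depth and muscle RNA, so these values are descriptions without a test.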

How the data were processed

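Each deposited matrix holds UMI counts per gene and nucleus, written by Cell Ranger 5.0.0 per the file headers, while the submitters' processing notes name Cell Ranger 3.1.0, Seurat 3.1.1 and Sscrofa11.1. Whether introns or strand entered the counting was not given in the sources used here. The deposited matrices held 18251 WT barcodes with 127126477 UMIs and 15000 TG barcodes with 89324966 UMIs, and nuclei with at least 500 genes and at most 5% mitochondrial UMIs were kept. Of 31908 genes 16498 had a symbol in the files, and 851 others were named from the RefSeq table.

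Both libraries were clustered together without batch correction in scanpy 1.11.5 (leidenalg 0.10.2, 2000 variable genes, 30 principal components, 15 neighbours, resolution 1, seed 1), and mural clusters again at resolution 0.5. Clusters were named from fixed marker lists, with naming thresholds set after the clusters had been seen. No doublet caller was run, and clusters with markers of several classes were set aside. Counts were summed per class and library and scaled to nuclear-encoded UMIs. Levels have exact Poisson intervals and ratios conditional binomial ones (scipy 1.17.1). Classes with at least 100 nuclei in both libraries were compared. PCR and counting error apart, no error between animals can be had from 1 library per genotype. Calculations were tested on simulated data.

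The members and lists were chosen with earlier results of these data known. All 10 members are named in every class, and of the other lists up to 2 genes in each direction, those furthest from a ratio of 1 among genes called in cardiomyocyte-like nuclei at 10 CPM or more. HSPB1, HSPE1, HSPA9, HSPA5, HSP90AB1, HSPA12B, DNAJB4, DES, FLNC, SYNPO2, STUB1, HSF1, HSF2, DDIT3, MYH11, ACTA2 and the immediate early genes named fall outside that rule and were chosen after their values were seen. Alternatives were edgeR 4.0.16 TMM factors, other totals, filters, depths, clusterings, weights and a subtraction of the library-wide profile. Cluster 6 alone and smooth muscle without m2 were added after seeing the data.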

Additional observations from a re-analysis of the deposited data

Results flagged for a closer look

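HSPB8 differed in direction between classes, with TG over WT ratios of 1.65 (1.01 to 2.65) in macrophage-like and 1.69 (1.33 to 2.16) in T or NK lymphocyte-like nuclei and 0.24 (0.161 to 0.346) in smooth muscle-like nuclei. HSPA8 did so as well, with 1.53 (1.11 to 2.12) in Schwann or neural-like and 0.236 (0.174 to 0.315) in smooth muscle-like nuclei. With 1 library per genotype the difference between classes was not tested. Without cluster m2 the smooth muscle ratios were 1.09 for HSPB8 and 1.13 for HSPA8.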

How the results depend on the processing

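No paired analysis was possible because there is 1 library per genotype. Of 1024 single ratios of the 10 genes recomputed under the alternatives, 831 moved by less than their own interval and 189 moved further. Another 4, all called in the main processing, turned direction, and turns of uncalled ratios are counted within the 831 and 189. Leaving out the filter on low genes cannot change a ratio, so its 90 of 90 within the interval were fixed in advance. In smooth muscle-like nuclei the log2 ratios of HSPB8, BAG3 and HSPA8 turned to 0.11, 0.30 and 0.16 without cluster m2. HSPB8 in macrophage-like nuclei turned to -1.18 with each library clustered on its own, and the cause was not tested. The 1 lower call in fibroblast-like nuclei, DNAJB1, became 0 with the total taken without the most abundant gene, with at least 2000 UMIs, with each library clustered on its own and with the library-wide profile subtracted. In cardiomyocyte-like nuclei 1 gene, HSPB8, was called lower after thinning to 1000 UMIs, where 0 were before. Cluster 6 alone gave 0 higher and 3 lower calls in place of 1 and 0. Subtracting the library-wide profile moved the most single ratios, 45 of 72, and TMM moved 6 of 90. Genes under 20 UMIs, and any difference between animals, are out of reach of these libraries.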

Other observations

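HSPA6, a strictly heat-inducible HSP70 gene, was nearly silent, with 93 UMIs in the whole WT library and 35 in TG, or 0.751 and 0.395 CPM. After thinning to 1000 UMIs, the variance over the mean of UMIs per nucleus, which is 1 for counting error alone, was 3.01 for HSPH1, 2.56 for HSPB8, 2.46 for BAG3 and 2.08 for HSPA8 in WT smooth muscle-like nuclei. In WT cardiomyocyte-like nuclei it was 1.08, 1.08, 1.05 and 1.10 for the same genes. The means differed too, at 0.207 and 0.0128 UMIs for HSPH1, and the smooth muscle-like class joins clusters m1 and m2. The values of these 2 classes are therefore not a like comparison. Elsewhere in WT the variance over the mean reached 2.40 for HSPH1 in vascular endothelial-like and 2.30 for HSPB7 in pericyte-like nuclei.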
